A study of Homo sapiens with 15 samples.

Results

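Unsorted cells of the breast cancer line SUM159PT were compared with the cancer stem cell (CSC) fraction sorted from the breast cancer line HCC1937, over 3 libraries of each, which are 6 of the 15 libraries of the study. Genes were taken where FPKM, the abundance scaled by transcript length and library size that the authors deposited, averaged at least 1 over the 6 libraries, and 11359 of the 33158 listed genes did. The study sequenced polyadenylated RNA, selected with oligo(dT), on a HiSeq instrument to find genes that mark breast CSCs. SUM149PT and HCC1937 were each sorted into CSCs and non-CSCs. The study took the whole SUM159PT line as CSC, since it reports nearly all its cells as CD44+CD24- by flow cytometry. SUM159PT was total RNA of the unsorted line, grown in F12 medium with serum, HEPES, insulin and hydrocortisone. HCC1937 CSCs were the CD44+/CD24-/low cells of a line grown in RPMI with serum, collected on a FACS Aria sorter. Both are established triple negative lines, meaning that they lack the estrogen receptor, the progesterone receptor and amplified HER2. Line, sorting and medium differ together between these groups and cannot be told apart. Nothing states that the 3 libraries of a group came from separate cultures, so the p-values measure the spread between libraries, which may be technical.

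Breast cells can hold an epithelial state, in which cadherins, claudins and desmosomes bind neighbours together, or a mesenchymal state, in which those junctions are lost and vimentin filaments, matrix proteins and motility take over. Transcription factors of the SNAI, ZEB and TWIST families repress junction genes, and OVOL, GRHL and ESRP family proteins maintain them. Surface CD44 with little CD24 and activity of aldehyde dehydrogenases are the usual markers of breast CSCs, and cells selected by the former tend to be mesenchymal-like while those selected by the latter tend to be epithelial-like.

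The 6 libraries differed in composition before any gene was compared. Summed FPKM was 652082, 646697 and 634746 in SUM159PT and 345131, 312475 and 306225 in HCC1937 CSC. The 3 SUM159PT libraries listed 8534, 8630 and 8670 genes above 1 FPKM, and the 3 HCC1937 CSC libraries 11656, 11582 and 11599. The 100 most abundant genes held 59.2%, 58.7% and 58.3% of all FPKM in SUM159PT against 31.9%, 31.4% and 31.7% in HCC1937 CSC. SUM159PT was thus the more concentrated transcriptome in every library. Across the tested genes, Pearson's r of log2(FPKM + 0.1) lay between 0.960 and 0.991 for libraries of the same group and between 0.501 and 0.559 for libraries of different groups, as a description, since genes are not independent replicates. The read depth behind each value is not known, so counting error could not be estimated.

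The difference between the groups followed base composition. Across 10944 genes matched to an annotated transcript, Spearman's rho between the log2 difference (SUM159PT minus HCC1937 CSC) and GC content was 0.596, and between the difference and transcript length it was -0.121. In the 10% of genes with the lowest GC content (median 38.7%) the median difference was -3.40, and in the 10% with the highest (median 64.3%) it was 0.71. By length, the median difference was -0.66 in the 10% with the shortest transcripts and -2.26 in the 10% with the longest. A smooth trend on both took 32.2% of the variance of the differences over genes, and after its removal rho was 0.0538 for GC content and 0.0081 for length. Differences were therefore computed both as deposited and with this trend removed, a step that also centres each library. Whether the trend belongs to the lines or to the preparation of the libraries was not tested.

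**Figure D1:**
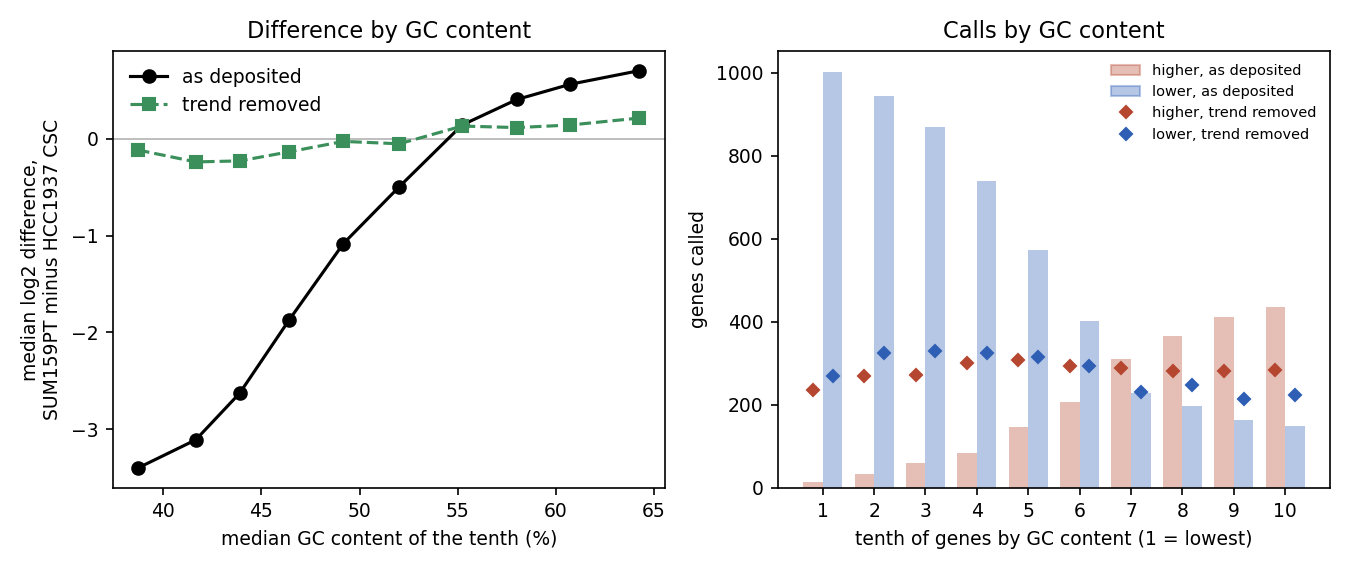
Left, median log2 difference (SUM159PT minus HCC1937 CSC) in each of 10 bins of genes by transcript GC content (%), from -3.40 to 0.71 as deposited and near 0 with the trend removed. Right, genes called higher or lower in each bin, as deposited (bars) and with the trend removed (diamonds).

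A gene was called at a Benjamini-Hochberg adjusted p of at most 0.05 in limma over all genes tested and a log2 difference of at least 1 in either direction. As deposited, 7619 of 11359 genes were called (67.1%), 2218 higher in SUM159PT (19.5%) and 5401 lower (47.5%). With the trend removed, 5589 of 10944 were called (51.1%), 2815 higher (25.7%) and 2774 lower (25.3%). Both fits called 4219 genes in the same direction (38.6%), 1653 higher (15.1%) and 2566 lower (23.4%). In 4216 of these 4219 the groups did not overlap, 1651 above and 2565 below (38.5%, 15.1% and 23.4% of the 10944). Over all 11359 tested genes, called or not, SUM159PT lay fully above in 3580 (31.5%) and fully below in 6741 (59.3%). A lack of overlap was thus common among all genes. Of the calls as deposited that were matched to an annotated transcript, the second fit, which removes the trend and centres each library, kept 79.9% of the higher and 48.7% of the lower ones, and 335 genes called lower as deposited were called higher in it. This balance depended on the centring, since 890 higher and 4071 lower genes were called in both fits when the mean shift of each library was kept, a setting chosen after seeing the data. With calls this common, the size of a difference says more than its call. An exact permutation test of 3 against 3 libraries cannot go below p = 0.10, so single genes rest on the spread that limma pools over genes.

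The balance of higher and lower depended on scaling. The median difference of all tested genes was -0.85 as deposited, -1.85 when every library was rescaled to the same sum (TPM), -0.31 with upper quartile scaling, 0.03 with quantile normalization and 0.27 with median centring. The higher share of calls was 29.1% as deposited, 12.2% with TPM, 41.1% with upper quartile scaling, 49.3% with quantile normalization and 53.5% with median centring. With the trend removed the median was -0.01 and the higher share 50.4%. Lists of genes are read below against these medians of -0.85 and -0.01, and their counts against the shares of all genes called. Those shares were 19.5% higher and 47.5% lower as deposited, and 25.7% and 25.3% with the trend removed. The counts of lists moved with scaling too. In no list did TPM give more higher or fewer lower calls than the values as deposited, or median centring fewer higher or more lower ones. Keeping the mean shift of each library gave no list more higher or fewer lower calls than the second fit. Each of these steps moves the difference of nearly every gene in the same direction, so this follows largely by construction.

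**Figure D2:**
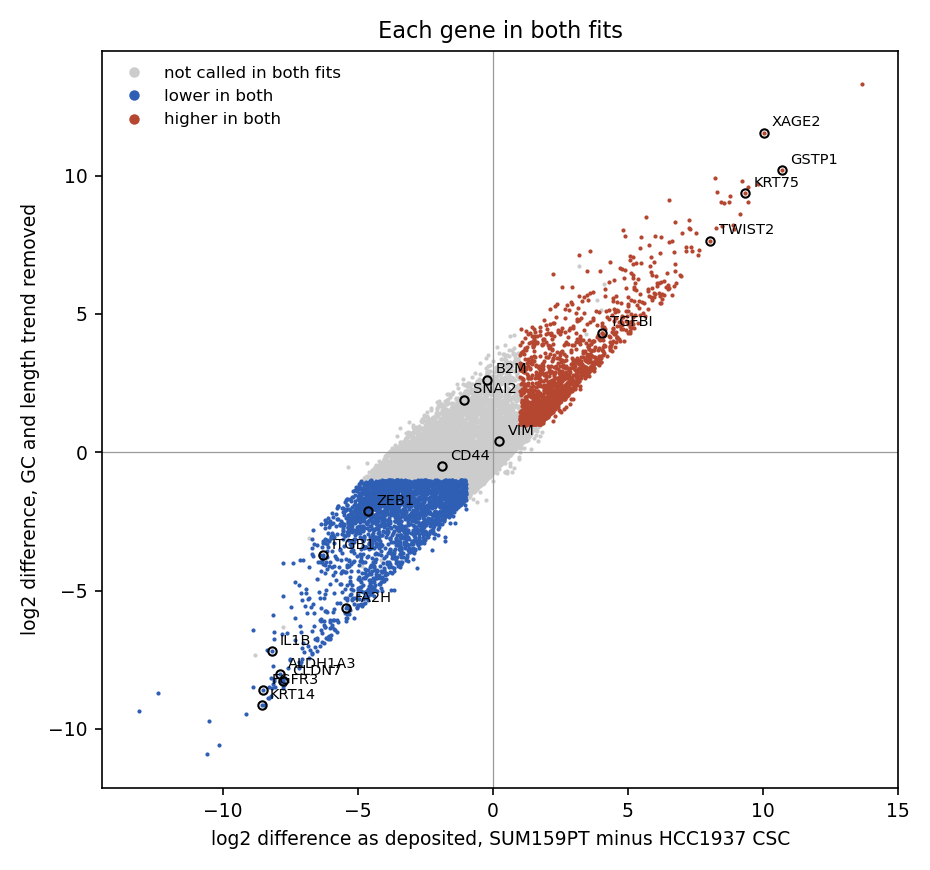
Log2 difference of each gene as deposited (horizontal) and with the GC and length trend removed (vertical), for 10944 genes. Blue and red mark the 2566 genes lower and the 1653 genes higher in both fits, and circles mark genes described in the text.

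The markers of the labels were examined first, as RNA, whereas the study measured CD44 and CD24 as surface protein. CD44, the adhesion receptor used in the sort, was listed at 28.6, 29.4 and 28.4 FPKM in SUM159PT and at 113, 100.4 and 106 in HCC1937 CSC. It was lower in every SUM159PT library as deposited (-1.88, adjusted p 1.88e-07), and with the trend removed the difference of -0.49 was not called. CD24, the surface protein whose low level defines the sort, was listed at 0.759, 0.682 and 0.745 FPKM in SUM159PT and at 23.6, 22.5 and 23.9 in HCC1937 CSC, differences of -4.82 and -3.37 as deposited and with the trend removed, in that order here and below. Unsorted SUM159PT thus carried less CD24 RNA than the fraction sorted for a low level of it. ESR1, the estrogen receptor gene, stayed under 1 FPKM in all 6 libraries, at 0.00687 ± 0.00269 in SUM159PT and 0.393 ± 0.0704 in HCC1937 CSC. PGR was listed at 0 in all 6, and ERBB2, which encodes HER2, was at 17.4, 19.8 and 19.999 in SUM159PT and 9.81, 10.5 and 10.2 in HCC1937 CSC, not called in either fit. In bulk samples, fewer cells that express a gene and less of its RNA per cell cannot be told apart. Of 21 markers of blood, vessel and fibroblast cells, 17 were under 1 FPKM in each SUM159PT library and 19 in each HCC1937 CSC library, and their summed level was 63.1, 69.2 and 59.7 FPKM against 110.1, 108.7 and 95.4. The most abundant was CD68, up to 34.0 FPKM, in SUM159PT and CD14, up to 65.0, in HCC1937 CSC. PTPRC, the marker of all leukocytes, was listed at 0 in SUM159PT and below 0.1 in HCC1937 CSC. The 3 that passed the minimum were CD68, not called, CD14, lower in both fits (18.7 ± 1.88 against 60.3 ± 6.003 FPKM, mean ± SD, n = 3), and DCN, a matrix proteoglycan of fibroblasts, at 10.9, 13.3 and 9.61 FPKM in SUM159PT and at 0.0365, 0.0153 and 0.0141 in HCC1937 CSC. Their median was -0.41 as deposited, 0.14 with upper quartile scaling and 0.71 with median centring, and -0.56 with the trend removed, where it turned to 0.30 with no minimum and 0.40 with a trend on length only.

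Junction genes of epithelia had the widest median gap among the lists. Of 27 junction and polarity genes 21 passed the minimum, with 20 called lower as deposited and 21 with the trend removed, and medians of -6.05 and -6.43. Of all genes, 47.5% and 25.3% were called lower. Members near 0 in SUM159PT passed the minimum by their level in HCC1937 CSC, so their direction was set by it. With no minimum the medians were -5.08 and -5.09. CDH1, the cadherin of epithelial contacts, was listed at 0.0457, 0.0701 and 0.0886 FPKM in SUM159PT and at 15.4, 17.4 and 17.8 in HCC1937 CSC. Every SUM159PT library lay under 0.1 FPKM and every HCC1937 CSC library above 15 (-6.66, SE 0.12, and -5.47, SE 0.12). EPCAM, an epithelial adhesion molecule, was listed at 0.0683, 0.0486 and 0.0233 FPKM in SUM159PT and at 18.1, 18.3 and 16.7 in HCC1937 CSC, and the groups were again far apart (-6.94 and -5.08). The tight junction claudin CLDN7 was listed at 0.16, 0.119 and 0.119 FPKM in SUM159PT and at 50.8, 51.1 and 49.002 in HCC1937 CSC and CLDN4 at 0.18, 0.352 and 0.489 FPKM in SUM159PT and at 41.04, 31.02 and 32.2 in HCC1937 CSC. CLDN7 differed by -7.76 and -8.26 and CLDN4 by -6.36 and -6.43. Further members with a wide trend-removed gap were CDH3, the basal cadherin (0.174 ± 0.0311 against 52.7 ± 1.35 FPKM), and the protease inhibitor SPINT2 (1.69 ± 0.315 against 193 ± 18.3 FPKM). AP1M2, an adaptor for basolateral sorting that was chosen after its values were seen, was the member called only with the trend removed, at 2.83, 2.64 and 3.24 FPKM in SUM159PT and at 4.9999, 5.18 and 5.58 in HCC1937 CSC (-1.01, and -0.98, -0.89 and -0.97 without SUM159PT replicate 1, SUM159PT replicate 2 or HCC1937 CSC replicate 3).

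The starts of 3 junction genes that were all lower are shown because ZEB and SNAI family repressors recognise the E-box letters CAGGTG, or CACCTG on the other strand. All 3 were taken from windows with at least 2 matches, so they do not stand for the list. The stretches run from 250 bases before to 50 after the start of transcription, are read 5′ to 3′ on the gene's own strand, come from RefSeq on GRCh38.p14, and carry those letters in capitals. They are CLDN7 on the minus strand (chr17:7262429-7262728, 5 matches), CRB3, which encodes an apical polarity protein, on the plus strand (chr19:6464021-6464320, 5 matches) and RAB25, which encodes an epithelial trafficking protein, on the plus strand (chr1:156060910-156061209, 2 matches).
CLDN7: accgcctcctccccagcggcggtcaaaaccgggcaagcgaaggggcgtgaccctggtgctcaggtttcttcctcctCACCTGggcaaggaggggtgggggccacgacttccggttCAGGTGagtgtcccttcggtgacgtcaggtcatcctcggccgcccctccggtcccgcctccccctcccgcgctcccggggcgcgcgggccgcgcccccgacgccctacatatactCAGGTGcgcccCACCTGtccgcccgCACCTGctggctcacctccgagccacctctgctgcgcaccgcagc
CRB3: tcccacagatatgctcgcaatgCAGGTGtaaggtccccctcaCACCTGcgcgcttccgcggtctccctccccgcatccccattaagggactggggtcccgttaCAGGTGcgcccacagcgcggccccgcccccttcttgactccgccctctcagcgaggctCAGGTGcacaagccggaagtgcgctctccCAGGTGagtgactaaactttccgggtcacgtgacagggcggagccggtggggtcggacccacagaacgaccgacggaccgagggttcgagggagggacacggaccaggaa
RAB25: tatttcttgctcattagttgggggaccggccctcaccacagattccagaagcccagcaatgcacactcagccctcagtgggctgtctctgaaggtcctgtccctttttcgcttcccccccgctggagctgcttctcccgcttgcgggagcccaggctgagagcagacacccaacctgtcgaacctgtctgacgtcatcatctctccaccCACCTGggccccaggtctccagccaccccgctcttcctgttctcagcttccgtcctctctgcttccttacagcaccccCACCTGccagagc
The letters occur in 7231 of all 35116 such windows (20.6%) and in 10 of the 18 windows found for 14 of the 27 junction genes (55.6%). At least 3 matches occur in 223 of all windows (0.635%) and in 4 of the 18 (22.2%), among them that of AP1M2, which is not shown. A match is a description of the letters and no evidence that a factor binds there, and the window of CLDN4 and that of another CLDN7 start (chr17:7263164-7263463) hold none. CRB3 and RAB25 were chosen after their values were seen. CRB3 was listed at 0.0633, 0 and 0 FPKM in SUM159PT and at 3.17, 3.05 and 3.35 in HCC1937 CSC and RAB25 at 0, 0.0764 and 0.0383 FPKM in SUM159PT and at 10.6, 13.04 and 9.08 in HCC1937 CSC. Both lay near 0 in every SUM159PT library, with differences of -4.80 and -5.48 for CRB3 and -6.34 and -6.54 for RAB25.

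Of 16 factors that maintain the epithelial state, 11 passed the minimum and were lower in both fits, with medians of -3.93 and -2.87. The minimum is on the mean of both groups, so members near 0 in SUM159PT passed it by their level in HCC1937 CSC, and with no minimum the medians were -3.56 and -3.27. With median centring or quantile normalization of the values as deposited, 9 of the 11 were called lower and none higher. EHF, an ETS family factor of epithelia, was listed at 0.101, 0.104 and 0.098 FPKM in SUM159PT and at 33.6, 30.5 and 34.2 in HCC1937 CSC. The splicing regulator ESRP2 was at 0.0142, 0.00756 and 0.015 FPKM in SUM159PT and at 4.67, 4.5 and 4.11 in HCC1937 CSC. ELF3, a factor of epithelial differentiation, stood at 0.986 ± 0.0246 against 16.4 ± 0.633 FPKM. KLF4, the most abundant of the list, kept a measurable level in SUM159PT (4.55, 5.24 and 4.32 FPKM against 43.2, 42.5 and 42.1). OVOL2 and GRHL2 were not tested, since they averaged under 1 FPKM, and OVOL2 was listed at 0 in all 3 SUM159PT libraries against 1.14, 1.93 and 0.293 FPKM.

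Desmosomes, the junctions that anchor keratin filaments, were lower in part. Of 11 genes tested, 9 were called lower as deposited and 7 with the trend removed, with medians of -5.42 and -2.60. These medians depended on the minimum and were -2.96 and -0.55 with a minimum of 5 FPKM. DSP, which links desmosomes to keratin, was listed at 0.0275, 0.0494 and 0.0567 FPKM in SUM159PT and at 9.07, 11.4 and 11.8 in HCC1937 CSC. The plakophilins PKP1 and PKP2 averaged 0.00403 and 0.0334 FPKM in SUM159PT against 6.19 and 5.94, and the plakin EVPL 0.00713 against 4.47. JUP, which serves both desmosomes and cadherin junctions, did not follow, at 66.7, 72.02 and 64.4 FPKM in SUM159PT and at 63.1, 61.3 and 60.1 in HCC1937 CSC. PKP3 did not either (22.9 ± 1.45 against 14.7 ± 0.795 FPKM), and neither was called in either fit. As deposited, JUP lay at -0.87 and PKP3 at -0.36 with TPM, and both were called higher with median centring.

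Keratins, the epithelial filament proteins, differed in both directions, with 4 called higher and 7 lower of 13 tested as deposited (median -1.57), and 3 higher and 8 lower of 13 with the trend removed (median -1.34). Of all genes, 19.5% were higher and 47.5% lower as deposited, and 25.7% and 25.3% with the trend removed. KRT14, the basal keratin, was listed at 0.244, 0.104 and 0.234 FPKM in SUM159PT and at 119, 108 and 99.7 in HCC1937 CSC (-8.57 and -9.14). KRT16, KRT17 and KRT5 went the same way, at means of 0.312, 1.15 and 1.34 FPKM in SUM159PT against 88.9, 91.6 and 12.9. KRT75, a keratin of the hair follicle, showed the reverse, at 142, 157 and 149.5 FPKM in SUM159PT and at 0.17, 0.147 and 0.0823 in HCC1937 CSC (9.34 and 9.36). The simple epithelial keratins persisted in SUM159PT, where KRT8 stood at 134, 130.4 and 131 FPKM against 232, 222 and 192 and KRT18 at 156, 145 and 158 against 237, 208 and 192. KRT7 was the most abundant keratin in both groups (979.9 ± 73.3 against 433 ± 33.9 FPKM), called higher as deposited (1.18) and not with the trend removed (0.60), with its direction turning under quantile normalization.

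Mesenchymal genes were not higher as a set where these were lower. Of 17 tested, 3 were called higher and 9 lower as deposited (median -1.02), beside 19.5% and 47.5% of all genes. The second fit called 5 higher and 5 lower (median -0.39), beside 25.7% and 25.3%. The list's median as deposited turned to 0.10 with median centring, and the trend-removed one to 0.26 with a minimum of 5 FPKM. VIM, the mesenchymal filament, was listed at 1091, 1082 and 1062 FPKM in SUM159PT and at 1012, 882 and 857 in HCC1937 CSC. It was abundant in both groups and not called in either fit (0.24 and 0.40), and under quantile normalization it was lower. ZEB1, a repressor of CDH1, was listed at 0.228, 0.117 and 0.268 FPKM in SUM159PT and at 6.77, 7.22 and 7.67 in HCC1937 CSC. It was the HCC1937 CSC fraction, with CDH1 expressed, that carried it (-4.62 and -2.14). TWIST2 showed the opposite pattern, at 39.1, 37.997 and 39.4 FPKM in SUM159PT and at 0, 0.128 and 0.0385 in HCC1937 CSC (8.05, adjusted p 4.02e-08, and 7.65). TWIST1 averaged 2.4 ± 0.35 against 2.46 ± 0.137 FPKM and was not called. SNAI2 was listed at 2.75, 2.3 and 2.71 FPKM in SUM159PT and at 5.4, 5.77 and 5.25 in HCC1937 CSC, lower as deposited (-1.05, and -0.98 without SUM159PT replicate 2) and higher with the trend removed (1.90). Its direction as deposited also turned under quantile normalization (0.31) and median centring (0.0656). CDH11, a mesenchymal cadherin, and NES, an intermediate filament of progenitors, were near 0 in SUM159PT (0.00527 ± 0.0052 against 6.19 ± 0.375 FPKM and 0.0149 ± 0.0117 against 6.68 ± 0.562 FPKM).

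**Figure D3:**
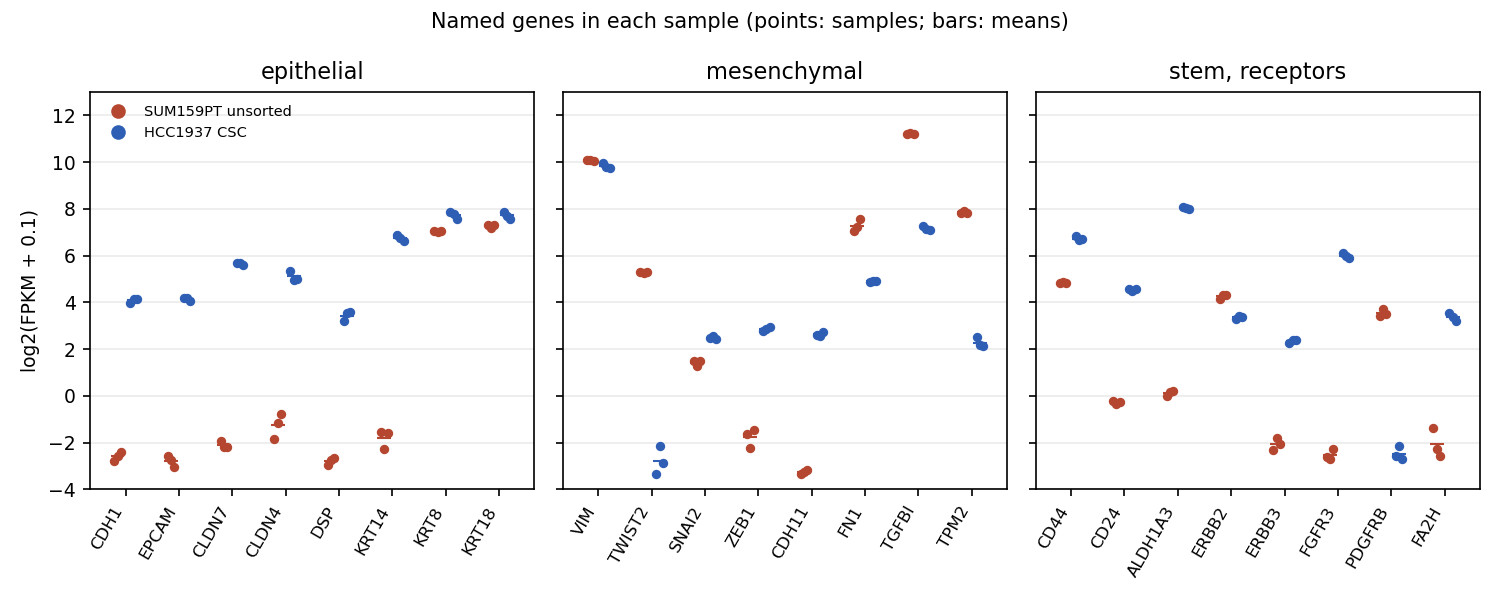
Level of 24 genes as log2(FPKM + 0.1) in each of the 3 SUM159PT and 3 HCC1937 CSC libraries. CDH1, EPCAM, CLDN7, CD24 and FA2H were lower in every SUM159PT library, VIM and ERBB2 lay close together, and TWIST2, TGFBI, TPM2 and PDGFRB were higher in every SUM159PT library.

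The other sorted fractions gave these genes levels that differed between CSC and non-CSC. Mean FPKM of CDH1 was 82.8, 3.32 and 78.3 in HCC1937 non-CSC, SUM149PT CSC and SUM149PT non-CSC. In the same order, CD24 was at 150.04, 7.74 and 139, VIM at 156, 2089.9 and 244 and ZEB1 at 1.63, 6.82 and 0.776. For CDH1 and CD24, SUM159PT was thus the lowest of the 5 groups, below the SUM149PT CSCs by mean.

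Extracellular matrix genes were split, with 7 called higher and 9 lower of 24 tested as deposited (median -0.16), and 10 higher and 8 lower of 24 with the trend removed (median -0.22). These stand beside 19.5% of all genes higher and 47.5% lower as deposited, and 25.7% and 25.3% with the trend removed. The median as deposited changed sign under upper quartile scaling, quantile normalization and median centring. The trend-removed one turned to 0.37 with no minimum, 0.94 with a trend on length only and 0.70 with the longest transcript. TGFBI, an adhesive matrix protein and the most abundant of the list, was listed at 2345, 2436 and 2387 FPKM in SUM159PT and at 156, 142 and 138 in HCC1937 CSC. Fibronectin, FN1, was at 133, 149.5 and 191 FPKM in SUM159PT and at 29.3, 29.8 and 29.998 in HCC1937 CSC. The collagens COL6A3 and COL8A1 were nearly confined to SUM159PT by these 2 groups, at 16.5 ± 2.63 against 0.169 ± 0.0621 FPKM and 24.6 ± 2.45 against 0.964 ± 0.207 FPKM. FBN1, the fibrillin of elastic microfibrils, went the other way, at 0.302, 0.338 and 0.436 FPKM in SUM159PT and at 38.7, 43.1 and 44.1 in HCC1937 CSC. SPARC (55.4 ± 3.96 against 67.4 ± 4.98 FPKM) was not called. LOX, which crosslinks collagen, was lower as deposited (-1.81) and higher with the trend removed (1.14, and 0.99 without SUM159PT replicate 3).

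Laminin and integrin genes, which fix epithelial cells to the basement membrane, were mostly lower, with 3 called higher and 13 lower of 21 tested as deposited (median -1.74), and 2 higher and 14 lower of 21 with the trend removed (median -1.78). Among all genes the lower share was 47.5% as deposited and 25.3% with the trend removed. LAMB3, a laminin chain of hemidesmosomes, was listed at 48.03, 52.6 and 53.1 FPKM in SUM159PT and at 178, 171 and 165 in HCC1937 CSC (-1.74 and -1.47). ITGB1, the integrin subunit shared by most matrix receptors, was at 4.65, 4.91 and 6.81 FPKM in SUM159PT and at 416, 418 and 452 in HCC1937 CSC, and ITGA2, which pairs with it on collagen, at 0.649 ± 0.14 against 68.8 ± 6.08 FPKM. Both gaps were narrower in the second fit (-6.29 and -3.72 for ITGB1, -6.54 and -3.36 for ITGA2). LAMA4, a laminin chain of other basement membranes, averaged 0.00846 ± 0.0114 against 9.01 ± 0.526 FPKM. ITGB4, the hemidesmosome subunit, and the tetraspanin CD151 that binds laminin receptors were higher in SUM159PT (82.96 ± 5.97 against 20.1 ± 0.404 FPKM and 543 ± 29.1 against 101.1 ± 6.34 FPKM).

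Contractile genes were higher in part, with 7 called higher and 4 lower of 18 tested as deposited (median 0.73), and 7 higher and 2 lower of 18 with the trend removed (median 0.56). The shares of all genes were 19.5% higher and 47.5% lower as deposited, and 25.7% and 25.3% with the trend removed. The median as deposited turned to -0.28 with TPM, and the trend-removed one to -0.08 with quantile normalization and -0.47 with the mean shift of each library kept. TPM2, a tropomyosin, was listed at 224, 244 and 229 FPKM in SUM159PT and at 5.67, 4.46 and 4.25 in HCC1937 CSC (5.58 and 5.04). The myosin light chain MYL9 was at 44.7, 46.2 and 44.02 FPKM in SUM159PT and at 3.23, 1.76 and 0.986 in HCC1937 CSC, and smooth muscle actin, ACTA2, at 10.1, 9.91 and 9.65 FPKM in SUM159PT and at 0.739, 0.317 and 0.387 in HCC1937 CSC. TAGLN, an actin-binding protein, and TGFB1I1, a focal contact adaptor, were also higher (21.98 ± 1.4 against 3.89 ± 0.509 FPKM and 99.8 ± 2.12 against 7.82 ± 1.57 FPKM). Others did not follow, since CALD1 was lower as deposited (-1.70), TPM1 was not called (6.3 ± 0.156 against 7.53 ± 0.452 FPKM), and ACTB, the most abundant, was not called (2408 ± 60.3 against 1527 ± 214 FPKM) and lower under quantile normalization.

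Stem and progenitor markers gave 2 called higher and 8 lower of 14 tested as deposited (median -1.70), and 2 higher and 7 lower of 14 with the trend removed (median -0.78), beside 19.5% of all genes higher and 47.5% lower as deposited and 25.7% and 25.3% with the trend removed. With median centring of the values as deposited 5 were higher and 6 lower, and the trend-removed median turned to 0.39 with no minimum. ALDH1A3, an aldehyde dehydrogenase behind the activity used to mark CSCs, was listed at 0.892, 1.03 and 1.05 FPKM in SUM159PT and at 268, 259.6 and 255 in HCC1937 CSC. The gap was -7.90 (SE 0.09, adjusted p 1.95e-09) and -8.02, and the other groups averaged 369.9, 27.7 and 294 FPKM in HCC1937 non-CSC, SUM149PT CSC and SUM149PT non-CSC. SOX9, a factor of luminal progenitors, was at 0.0618, 0.0875 and 0.109 FPKM in SUM159PT and at 11.9, 12.1 and 12.5 in HCC1937 CSC, and ALDH3A1 averaged 0.0942 ± 0.0091 against 3.96 ± 0.326 FPKM. MME, a surface peptidase of myoepithelial cells, was higher with the trend removed (3.64) and close to the limit as deposited (1.08, not called without SUM159PT replicate 3, at 0.95, or HCC1937 CSC replicate 3, at 0.95). PROM1, which encodes CD133, was listed at 0 in all 6 libraries.

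Luminal genes gave 2 called higher and 6 lower of 12 tested as deposited (median -1.25), beside 19.5% and 47.5% of all genes. The second fit called 3 higher and 5 lower (median -0.39), beside 25.7% and 25.3%. Both medians of the list turned with a minimum of 5 FPKM (0.24 and 0.27), and the trend-removed one also with a trend on length only (0.19). FOXA1 and GATA3, factors of luminal cells, averaged 0.338 ± 0.0382 against 2.83 ± 0.439 FPKM and 1.58 ± 0.11 against 4.8 ± 1.03 FPKM, and GATA3 lost its gap under quantile normalization of the values as deposited. MLPH, a luminal trafficking protein, was at 0.14 ± 0.0225 against 5.62 ± 0.311 FPKM, and the carbonic anhydrase CA12 was higher in SUM159PT (21.5 ± 1.57 against 6.2 ± 0.453 FPKM). The most abundant member, XBP1, a factor of the secretory pathway, was not called (61.5 ± 0.792 against 82.3 ± 1.38 FPKM). Of 15 basal and myoepithelial genes tested, 1 was called higher and 12 lower as deposited (median -2.84). The second fit called 2 higher and 8 lower (median -1.22). SFRP1, a Wnt inhibitor, was at 0.0413, 0.0089 and 0.0173 FPKM in SUM159PT and at 15.6, 13.3 and 15.3 in HCC1937 CSC. The chaperone CRYAB was at 0.484 ± 0.14 against 6.73 ± 0.465 FPKM. CAV1, the caveolin and most abundant member, was called as deposited (13.8 ± 1.17 against 98.995 ± 5.45 FPKM) and not with the trend removed.

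Growth factor receptors and ligands were lower as a group. Of 24 tested, 3 were called higher and 17 lower as deposited (median -3.21), beside 19.5% and 47.5% of all genes. The second fit called 1 higher and 14 lower (median -1.43), beside 25.7% and 25.3%. The list's medians were -1.88 and -1.21 with no minimum, and -1.71 and -1.57 with quantile normalization. FGFR3, a fibroblast growth factor receptor, was listed at 0.0636, 0.0562 and 0.105 FPKM in SUM159PT and at 69.1, 62.5 and 59.8 in HCC1937 CSC (-8.52 and -8.59). MST1R and ERBB3 were near 0 in SUM159PT (0.0259 ± 0.00875 against 11.3 ± 0.307 FPKM and 0.144 ± 0.0436 against 5.01 ± 0.248 FPKM). MET averaged 1.61 ± 0.407 against 20.9 ± 1.03 FPKM, and EGFR 4.64 ± 0.925 against 11.99 ± 1.15 FPKM, the latter called as deposited (-1.36) but short of the limit with the trend removed (-0.98), where leaving out SUM159PT replicate 3 (-1.07), HCC1937 CSC replicate 1 (-1.20) or HCC1937 CSC replicate 2 (-1.05) brought it past. PDGFRB, a receptor of mesenchymal cells, was the member called higher in both fits, at 10.5, 12.9 and 11.2 FPKM in SUM159PT and at 0.0669, 0.126 and 0.0536 in HCC1937 CSC. The groups did not overlap for it, with differences of 6.02 and 5.71. EPHA2, the most abundant of the list, averaged 46.1 ± 1.8 against 95.2 ± 6.82 FPKM.

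In TGF-beta, activin and BMP signalling, 0 of 22 tested were called higher and 14 lower as deposited (median -1.28), beside 19.5% and 47.5% of all genes. The second fit called 3 higher and 8 lower (median -0.39), beside 25.7% and 25.3%. The list's medians were -2.62 and -1.56 with a minimum of 5 FPKM, and the trend-removed one was -0.04 with 0.1 FPKM. As deposited, quantile normalization gave 6 higher and 7 lower (median -0.31) and median centring 4 and 7 (-0.16), and with the trend removed quantile normalization gave 6 and 9 (-0.08). TGFBR2, the ligand-binding TGF-beta receptor and 1 of the study's candidate genes, was listed at 7.62, 8.28 and 8.97 FPKM in SUM159PT and at 18.3, 19.2 and 17.9 in HCC1937 CSC, called as deposited (-1.15) and at 0.997 with the trend removed, where it crossed the limit without SUM159PT replicate 1 (1.02) or replicate 2 (1.003). The ligand BMP2 averaged 0.558 ± 0.0834 against 12.3 ± 0.435 FPKM, the decoy receptor BAMBI 0.575 ± 0.172 against 29.2 ± 2.32 FPKM and the latency protein LTBP2 0.805 ± 0.0593 against 8.18 ± 0.218 FPKM. The target genes ID1 and ID3 were not called (123 ± 8.72 against 109 ± 18.7 FPKM and 186 ± 17.5 against 96.4 ± 7.69 FPKM), though ID3 as deposited crossed the limit without SUM159PT replicate 2 (1.02), and the signal transducer SMAD3 was lower (-1.09 and -1.34). Wnt, Notch and YAP target genes gave 3 called higher and 19 lower of 27 tested as deposited (median -2.28), and 3 higher and 18 lower of 27 with the trend removed (median -1.25). CTGF, a YAP target, was listed at 7.38, 7.43 and 8.37 FPKM in SUM159PT and at 81.4, 69.2 and 66.1 in HCC1937 CSC, and CYR61, another, at 172 ± 4.88 against 352 ± 26.02 FPKM. The Notch ligand JAG1 averaged 3.44 ± 0.468 against 11.9 ± 0.281 FPKM, the Wnt receptor FZD8 0.631 ± 0.153 against 27.7 ± 2.08 FPKM and the ligand WNT5B 0.368 ± 0.093 against 11.2 ± 0.446 FPKM. DKK3, a secreted protein of the dickkopf family, was higher, at 57.5, 61.4 and 57.3 FPKM in SUM159PT and at 1.01, 0.951 and 0.773 in HCC1937 CSC.

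Cytokines were mostly lower in SUM159PT, with 3 called higher and 20 lower of 25 tested as deposited (median -2.11), and 6 higher and 17 lower of 25 with the trend removed (median -1.89). IL1B, an inflammatory cytokine, was listed at 0.5, 0.84 and 0.648 FPKM in SUM159PT and at 254, 204 and 209 in HCC1937 CSC (-8.20 and -7.19). CXCL1, a neutrophil chemokine, was at 4.06, 3.83 and 3.53 FPKM in SUM159PT and at 360.1, 271 and 257 in HCC1937 CSC, and CXCL6, its relative, was listed at 0 in 2 of 3 SUM159PT libraries against 19.1, 20.04 and 17.4 FPKM. IL6, which feeds STAT3 signalling, was at 1.5, 1.7 and 1.21 FPKM in SUM159PT and at 18.8, 14.9 and 16.7 in HCC1937 CSC (-3.43 and -1.65), IL11 at 0.156 ± 0.0348 against 14.01 ± 1.39 FPKM and CSF2 at 1.2 ± 0.0831 against 5.24 ± 1.14 FPKM. IL8 differed in direction between the fits (-1.49 and 1.62). STAT3 itself was not called (24.9 ± 2.19 against 41.8 ± 2.09 FPKM).

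Interferon response genes gave 5 called higher and 20 lower of 34 tested as deposited (median -2.07), and 3 higher and 13 lower of 34 with the trend removed (median -0.37), and the median as deposited turned to 0.27 with a minimum of 5 FPKM. Across all genes 19.5% were higher and 47.5% lower as deposited, and 25.7% and 25.3% with the trend removed. IFITM1 and IFITM3, membrane proteins that block viral entry, were higher in SUM159PT, IFITM1 at 726, 685 and 584 FPKM in SUM159PT and at 24.2, 30.2 and 31.5 in HCC1937 CSC and IFITM3 at 2189 ± 122 against 282 ± 40.4 FPKM. The dynamin-like MX1 and MX2 were lower (0.819 ± 0.0627 against 3.48 ± 0.453 FPKM and 0.142 ± 0.00762 against 9.17 ± 0.559 FPKM), as was the apoptosis factor XAF1 (0.0212 ± 0.0192 against 2.34 ± 0.24 FPKM). ISG15 was not called (66.2 ± 2.83 against 65.3 ± 10.3 FPKM), and IFIT1 was lower only as deposited (-3.17 and 0.19). The list thus held genes far apart in both directions.

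Antigen presentation genes gave 1 called higher and 9 lower of 14 tested as deposited (median -2.16), and 1 higher and 9 lower of 14 with the trend removed (median -1.68), but several lie in a region where values were uneven. HLA-B averaged 2837 ± 244 against 5394 ± 426 FPKM, while HLA-F was listed at 0, 1.47 and 0 FPKM in SUM159PT and at 432, 416 and 330.5 in HCC1937 CSC. Of 43 tested genes in the major histocompatibility complex (MHC) region of chromosome 6, chosen after values were seen, 8 were listed at 0 in all SUM159PT libraries (18.6%) and 6 in all HCC1937 CSC libraries (14.0%), against 87 (0.769%) and 42 (0.371%) of 11316 other genes. Among them PSMB9, a subunit of the immunoproteasome, was at 9.43, 17.2 and 2.58 FPKM in HCC1937 CSC, and HLA-DRB1 at 9.31, 12.4 and 13.3. TUBB, a tubulin that dividing cells use in bulk, lies in the region too and was listed at 0.658, 1.21 and 0.26 FPKM in SUM159PT and at 1245, 935 and 971 in HCC1937 CSC, with means of 1031, 2.03 and 0.78 in HCC1937 non-CSC, SUM149PT CSC and SUM149PT non-CSC. Levels in this region are given as listed, and how the deposited values were made there was not tested. Outside it, B2M, the light chain of class I molecules, was listed at 377, 448 and 372 FPKM in SUM159PT and at 512, 439 and 444.4 in HCC1937 CSC, not called as deposited (-0.22) and higher with the trend removed (2.63), and CD74, the class II chaperone, averaged 0.361 ± 0.106 against 1.82 ± 0.147 FPKM.

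FA2H, the fatty acid 2-hydroxylase that the study singled out, was listed at 0.281, 0.105 and 0.0705 FPKM in SUM159PT and at 11.5, 10.2 and 9.06 in HCC1937 CSC. It was lower in 3 of 3 SUM159PT libraries (-5.44, SE 0.28, adjusted p 4.36e-07, and -5.63, SE 0.29, adjusted p 1.39e-06). The study had chosen it partly because it ranked low in SUM159PT in these same data. It also describes FA2H as exceptionally high in HCC1937, so this gap is no independent support for the choice. In HCC1937 non-CSC, SUM149PT CSC and SUM149PT non-CSC it averaged 22.3, 0.241 and 1.35 FPKM. Around it, sphingolipid and eicosanoid enzymes gave 5 called higher and 10 lower of 19 tested as deposited (median -1.03), and 6 higher and 5 lower of 19 with the trend removed (median 0.37), and the median as deposited turned to 0.09 with median centring and the trend-removed one to -0.66 with the library mean shift kept. PTGS2, the inducible cyclooxygenase, was at 0.0774, 0.116 and 0.0889 FPKM in SUM159PT and at 19.9, 19.9 and 20.7 in HCC1937 CSC, and the constitutive PTGS1 at 5.01, 5.64 and 5.33 FPKM in SUM159PT and at 0.319, 0.505 and 0.292 in HCC1937 CSC. The pair thus ran in opposite directions, and the prostaglandin receptor PTGER4 went with PTGS2 (0.636 ± 0.0746 against 5.35 ± 0.212 FPKM). The sphingomyelin synthase SGMS2 averaged 0.273 ± 0.0357 against 8.23 ± 0.44 FPKM, and the ceramide synthase CERS2, the most abundant member, 102 ± 5.03 against 32.95 ± 1.42 FPKM. Of the other candidate genes of the study, TNC, a matrix glycoprotein, was lower by a margin close to the limit (21.6 ± 2.2 against 45.04 ± 0.429 FPKM, -1.06 and -1.02), which it missed as deposited without SUM159PT replicate 1 (-0.99) and with the trend removed without SUM159PT replicate 1 (-0.90) or replicate 2 (-0.94). ALOX15B, IL2RG, TNNC1 and KCNMA1 averaged under 1 FPKM and were not tested, and KCNMA1, a potassium channel gene, was at 1.51, 1.43 and 1.51 FPKM in SUM159PT and 0.326, 0.321 and 0.36 in HCC1937 CSC.

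Cholesterol and fatty acid synthesis gave 2 called higher and 16 lower of 28 tested as deposited (median -1.53), and 2 higher and 14 lower of 28 with the trend removed (median -1.01). HMGCS1, an early enzyme of the mevalonate pathway, was listed at 0.403, 0.362 and 0.348 FPKM in SUM159PT and at 52.7, 53.3 and 54.2 in HCC1937 CSC (-6.83 and -4.16). IDI1, a later enzyme of it, averaged 1.12 ± 0.102 against 49.98 ± 2.55 FPKM. The desaturase SCD and the elongase ELOVL6 were lower too (14.3 ± 0.689 against 132 ± 5.76 FPKM and 0.714 ± 0.158 against 21.98 ± 0.799 FPKM). FASN, the fatty acid synthase, was not called (89.7 ± 12.5 against 64.6 ± 1.43 FPKM). FDPS, the most abundant member only by the mean over both groups, was not called either (75.04 ± 0.816 against 91.5 ± 9.67 FPKM).

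Genes that respond to glucocorticoids were examined because hydrocortisone was in the medium of SUM159PT and not in that of HCC1937. There were 11 called higher and 6 lower of 21 tested as deposited (median 1.01), and 11 higher and 4 lower of 21 with the trend removed (median 1.13), but with TPM the values as deposited gave 6 higher and 8 lower and a median of 0.01, and with the trend removed and the mean shift of each library kept there were 7 higher and 6 lower (median 0.09). TSC22D3, a direct target also called GILZ, was listed at 278, 326 and 291 FPKM in SUM159PT and at 8.08, 8.26 and 7.57 in HCC1937 CSC (5.21, SE 0.09, and 4.88, SE 0.08). GLUL, glutamine synthetase, was at 172, 229 and 174 FPKM in SUM159PT and at 8.84, 9.03 and 8.02 in HCC1937 CSC, and ZBTB16 at 4.84, 7.28 and 5.82 FPKM in SUM159PT and listed at 0 in every HCC1937 CSC library. These 3 targets separated the groups fully, as most tested genes did. FKBP5, a chaperone of the receptor, and the clock gene PER1 were also higher (5.53 ± 1.1 against 1.93 ± 0.275 FPKM and 27.6 ± 2.9 against 5.49 ± 0.497 FPKM), while SGK1, a kinase target, was lower (0.907 ± 0.213 against 35.2 ± 3.59 FPKM), and MT2A, the most abundant member, was not called (1013 ± 180.2 against 1655 ± 135 FPKM). SUM149PT was grown in the same medium as SUM159PT, and its CSCs averaged 35.02 FPKM of TSC22D3, 1.38 of FKBP5 and 0 of ZBTB16. Medium and line cannot be told apart in these groups.

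Among NRF2 targets and antioxidant genes there were 10 called higher and 7 lower of 26 tested as deposited (median 0.70), and 13 higher and 2 lower of 26 with the trend removed (median 1.05), but as deposited 7 higher and 11 lower with TPM (median -0.30) and 9 of each with quantile normalization (-0.04). With the trend removed there were 7 higher and 8 lower with quantile normalization (-0.28) and 7 and 6 with the mean shift of each library kept (0.02). GSTP1, a glutathione transferase, was listed at 1202, 1085 and 1275 FPKM in SUM159PT and at 0.525, 1.11 and 0.354 in HCC1937 CSC (10.72, SE 0.32, adjusted p 2.53e-08, and 10.19). It was the widest gap of any list member toward SUM159PT, and its mean was 0.666, 205 and 266 FPKM in HCC1937 non-CSC, SUM149PT CSC and SUM149PT non-CSC. HMOX1, heme oxygenase, was at 193, 203 and 186 FPKM in SUM159PT and at 15.6, 16.5 and 16.8 in HCC1937 CSC, the transketolase TKT at 474 ± 21.99 against 53.4 ± 2.81 FPKM and the reductase AKR1C2 at 16.1 ± 2.21 against 2.9 ± 0.381 FPKM. GCLM, a subunit of the enzyme that starts glutathione synthesis, was lower only as deposited (-2.24 and 0.35), and the ferritin chain FTL, the most abundant member, was higher only as deposited (1.22 and 0.88) and lower under quantile normalization.

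Glycolysis and hypoxia genes gave 5 called higher and 9 lower of 26 tested as deposited (median -0.33), and 7 higher and 4 lower of 26 with the trend removed (median 0.14), medians that changed sign with scaling in both fits. For all genes the shares were 19.5% higher and 47.5% lower as deposited, and 25.7% and 25.3% with the trend removed. CA9, a carbonic anhydrase induced by hypoxia, was listed at 3.41, 3.68 and 7.21 FPKM in SUM159PT and at 0.585, 0.452 and 0.192 in HCC1937 CSC, and EGLN3, an oxygen sensor, averaged 3.24 ± 0.191 against 0.611 ± 0.107 FPKM. ADM and VEGFA, hypoxia targets as well, were lower (13.6 ± 0.917 against 48.7 ± 8.44 FPKM and 18.1 ± 1.61 against 54.3 ± 0.883 FPKM). ENO1, the most abundant enzyme, was called higher in both fits (1.22 and 1.55), and its sign turned under quantile normalization (-0.27 and -0.67). LDHA was called higher only with the trend removed (-0.66 and 1.24), and there its sign turned under quantile normalization (-0.37). The glucose transporter SLC2A1 was not called. Genes of the handling and stress response were mostly lower. Of 24 tested, 1 was called higher and 14 lower as deposited (median -1.98), beside 19.5% and 47.5% of all genes. The second fit called 2 higher and 15 lower (median -2.03), beside 25.7% and 25.3%. FOS, an immediate early gene, was at 7.1, 9.09 and 7.34 FPKM in SUM159PT and at 51.4, 53.2 and 52.2 in HCC1937 CSC, its relative FOSB at 0.593 ± 0.179 against 14.4 ± 0.276 FPKM, ATF3 at 1.29 ± 0.0977 against 15.1 ± 0.992 FPKM and EGR1 at 27.5 ± 2.64 against 99.7 ± 4.52 FPKM. HSPA5, the chaperone of the endoplasmic reticulum, was at 27.96, 31.8 and 29.2 FPKM in SUM159PT and at 838, 864 and 866 in HCC1937 CSC, and the co-chaperone DNAJB1 averaged 20.99 ± 0.84 against 123 ± 9.28 FPKM. HSPA1A, which lies in the MHC region where values were uneven, was listed at 0.041, 0.081 and 0 FPKM in SUM159PT and at 0.789, 4.71 and 17.3 in HCC1937 CSC. Only HCC1937 cells were put through the sorter here, and the part of sorting in these values was not tested.

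Cell cycle genes were lower for many members. Of 39 tested, 2 were called higher and 25 lower as deposited (median -1.92), beside 19.5% and 47.5% of all genes. The second fit called 4 higher and 16 lower (median -0.54), beside 25.7% and 25.3%. With the trend removed, 1 was called higher and 32 lower when the mean shift of each library was kept (median -1.57), and 1 higher and 26 lower with quantile normalization. MKI67, a marker of cycling cells, was listed at 1.03, 1.27 and 1.9 FPKM in SUM159PT and at 26.5, 29.7 and 30.6 in HCC1937 CSC (-4.31 and -3.13). The topoisomerase TOP2A averaged 2.11 ± 0.657 against 59.5 ± 3.95 FPKM, and the kinetochore proteins CENPE and CENPF 0.0787 ± 0.0187 against 8.19 ± 0.766 FPKM and 0.273 ± 0.105 against 16.6 ± 1.66 FPKM. The CENPE gap was narrower in the second fit (-5.54 and -2.03). CCNB1, the mitotic cyclin, was called only as deposited (-2.01 and -0.05), and the replication clamp PCNA, the most abundant member, in both (-3.16 and -1.18). CDT1, which loads the replicative helicase, was higher, at 158, 147 and 152 FPKM in SUM159PT and at 25.5, 21.7 and 18.4 in HCC1937 CSC. MCM2, a subunit of that helicase, was not called (68.9 ± 1.22 against 56.8 ± 4.84 FPKM). Histones were mostly replication dependent ones, whose RNA mostly lacks a poly(A) tail. Of 9 tested, 1 was called higher and 6 lower as deposited (median -2.48). The second fit called 2 higher and 4 lower (median -0.87). HIST1H2BK was at 23.1 ± 0.979 against 79.6 ± 11.96 FPKM, HIST1H2BD at 0.895 ± 0.0999 against 6.86 ± 0.887 FPKM and HIST1H2BC at 0.357 ± 0.187 against 3.71 ± 0.521 FPKM. HIST1H1C was higher, at 79.6 ± 8.92 against 20.04 ± 3.996 FPKM. H1F0, a replication independent linker histone, was the most abundant only by the mean over both groups (66.6 ± 3.25 against 41.004 ± 1.19 FPKM).

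Several genes often altered in breast cancer lines were near 0 in one group. The list gave 2 called higher and 14 lower of 16 tested as deposited (median -3.60), and 2 higher and 8 lower of 16 with the trend removed (median -1.01). CDKN2A, a cell cycle inhibitor at chr9:21967753-21995301, was listed at 0.0438, 0.0448 and 0.0906 FPKM in SUM159PT and at 57.7, 48.1 and 47.6 in HCC1937 CSC (-8.33 and -8.90). Its neighbours CDKN2B (chr9:22002903-22009363) and MTAP (chr9:21802543-21937651), a second inhibitor and an enzyme of methionine salvage, were listed at 0.0184, 0.0399 and 0.00955 FPKM in SUM159PT and at 18.1, 16.1 and 17.95 in HCC1937 CSC and at 0.00724, 0.008 and 0.00746 FPKM in SUM159PT and at 15.3, 15.4 and 15.99 in HCC1937 CSC. All 3 were under 0.1 FPKM in every SUM159PT library, and in SUM149PT CSC they averaged 0.0421, 0.0117 and 0.014 FPKM. PIK3R1, a regulatory subunit of PI3K, was higher (2.23 ± 0.47 against 0.517 ± 0.0945 FPKM). RB1 was lower only as deposited (-2.61 and 0.36), and CCND1, the most abundant member, was lower in both (-1.30 and -1.97). RNA levels alone do not show whether a gene is deleted.

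Ribosomal protein genes were the widest gap toward SUM159PT. They gave 69 called higher and 1 lower of 74 tested as deposited (median 2.49), and 72 higher and 0 lower of 74 with the trend removed (median 3.12), and higher calls outnumbered lower ones under each scaling in both fits, with the lowest count as deposited, 45 of 74, under quantile normalization (median 1.31). The 78 genes held 28.4%, 27.5% and 27.4% of all FPKM in SUM159PT and 8.79%, 8.47% and 7.67% in HCC1937 CSC. In the other 9 libraries they held from 6.73% to 11.97%, so the 3 SUM159PT libraries stood apart from all others. RPL37A, the most abundant, was listed at 21316, 20849.5 and 21820.0 FPKM in SUM159PT and at 1621, 1378 and 1223 in HCC1937 CSC. RPL3 averaged 2624 ± 172 against 296 ± 25.4 FPKM, RPLP0 1279 ± 46.6 against 114 ± 21.3 FPKM and RPS3 1087 ± 115 against 92.2 ± 10.3 FPKM. RPL9, RPL17 and RPS9 had wide trend-removed gaps (5.44, 5.21 and 5.66), with RPS9 listed at 0 in 2 of 3 HCC1937 CSC libraries. Whether the share of short, abundant transcripts reflects the line or the library was not tested.

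Nuclear genes of the mitochondrial respiratory chain gave 18 called higher and 4 lower of 48 tested as deposited (median 0.89), and 32 higher and 0 lower of 48 with the trend removed (median 1.29). This balance rested on scaling, with 3 higher and 8 lower as deposited under TPM (median -0.11) and, with the trend removed, 12 and 6 under quantile normalization (-0.02) and 14 and 2 with the mean shift of each library kept (0.26). COX7C, a subunit of cytochrome oxidase, was listed at 849, 843 and 777 FPKM in SUM159PT and at 358, 342 and 282 in HCC1937 CSC (1.34 and 3.96). NDUFA4, UQCRH and NDUFB1, subunits of respiratory complexes, averaged 69.1 ± 5.56 against 23.6 ± 2.09 FPKM, 459 ± 35.1 against 151 ± 28.1 FPKM and 246 ± 18.7 against 63.96 ± 16.98 FPKM. COX4I1 and the synthase subunit ATP5B were higher with the trend removed (1.13 and 1.65) but lower under quantile normalization, and ATP5B as deposited (0.998) crossed the limit without SUM159PT replicate 3 (1.02) or HCC1937 CSC replicate 1 (1.05). COX8A, the most abundant, was called only as deposited (1.06 and 0.39), and not without HCC1937 CSC replicate 3 (0.97). The 13 mitochondrially encoded protein genes were looked up by their current symbols only, under which none was matched, and their levels were not analysed.

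**Figure D4:**
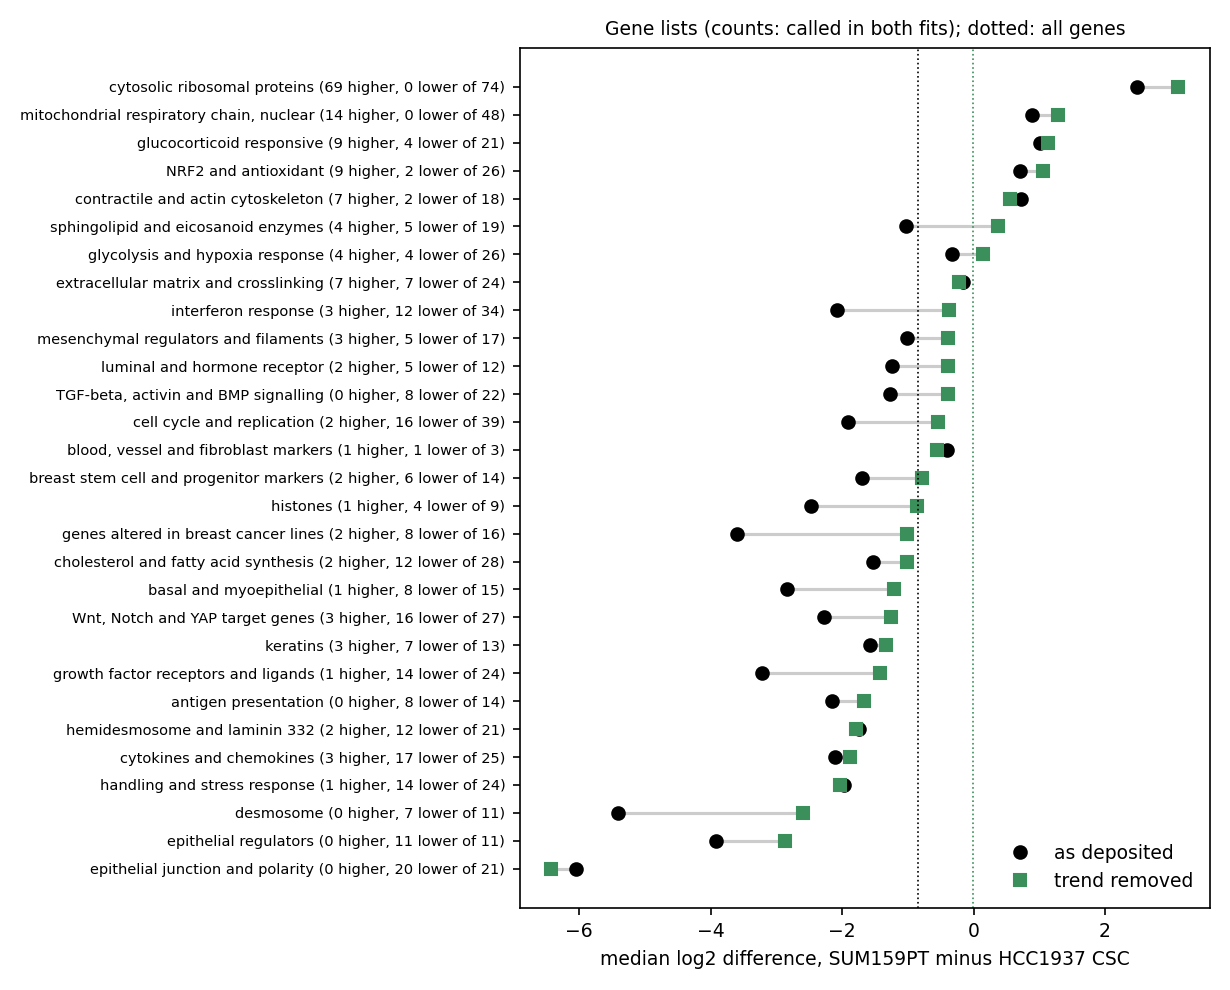
Median log2 difference (SUM159PT minus HCC1937 CSC) of 29 gene lists as deposited (circles) and with the trend removed (squares), with the members called in both fits beside each name. Junction genes lie lowest at -6.43 and ribosomal protein genes highest at 3.12 with the trend removed, and dotted lines mark the medians of all genes.

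The genes with the largest gap in both fits, 10 in each direction, were taken by the smaller of their 2 differences. Toward SUM159PT, XAGE2 and SPANXB1, cancer-testis genes of the X chromosome, were listed at 201, 244 and 190.1 FPKM in SUM159PT and at 0.0477, 0.117 and 0.154 in HCC1937 CSC and at 100.8, 108 and 103 FPKM in SUM159PT and at 0.112, 0.148 and 0 in HCC1937 CSC. NPTX2, a secreted pentraxin, was at 112, 114 and 110.4 FPKM in SUM159PT and at 0.0157, 0.0368 and 0.0165 in HCC1937 CSC. The adhesion gene CADM3, the adaptor BEX1, the embryonic globin HBE1 and the glycophorin GYPC averaged 101.4, 55.8, 78.8 and 83.02 FPKM in SUM159PT, each under 0.2 in HCC1937 CSC by mean. GSTP1 and KRT75, described above, belong to this group. LENG1 was listed at 1201, 1258 and 1505 FPKM in SUM159PT and at 0 in every HCC1937 CSC library. It lies at chr19:54155161-54159882, close to RPS9, and no fold is given against a group at 0.

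Toward HCC1937 CSC, KRT14, FGFR3, HLA-F and TUBB have been described. CFB, a complement factor, was listed at 0.679, 0.725 and 0.839 FPKM in SUM159PT and at 421, 364 and 436 in HCC1937 CSC. PPT2, a lysosomal thioesterase, and DDAH2, an enzyme of methylarginine breakdown, were listed at 0 in every SUM159PT library and, in HCC1937 CSC, at 113, 127 and 102 FPKM for PPT2 and 49.1, 20.97 and 42.7 for DDAH2. CFB, PPT2 and DDAH2 lie in the MHC region with HLA-F and TUBB, so 5 of the 10 genes come from it. The small nucleolar RNAs SNORA63, SNORA4 and RNU105A were listed at 0 in every SUM159PT library and, in HCC1937 CSC, SNORA63 at 871, 992 and 833 FPKM, SNORA4 at 591, 806 and 338 and RNU105A at 14.5, 193 and 67.1. Their transcripts span 132, 138 and 204 bases and are not polyadenylated as a rule, and RNU105A varied more than 10-fold between the HCC1937 CSC libraries.

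Along the chromosomes, trend-removed differences were not even. By chromosome the median ran from -0.35 on chromosome 3 and -0.34 on chromosome 5 to 0.49 on chromosomes 7 and 21. In 207 runs of 50 neighbouring tested genes, the median difference ran from -1.91 to 1.23, with quartiles at -0.33 and 0.35. The 3 lowest runs followed each other at the end of chromosome 3. The lowest, chr3:186783205-197787596 from EIF4A2 to FYTTD1, had 34 of 50 genes lower in both fits and 2 higher, beside 23.4% and 15.1% of all genes. The runs before it, chr3:172750682-186585800 (median -1.22) and chr3:150541994-172711218 (median -1.35), had 26 and 28 genes lower. The next lowest, chr6:27125897-32859585 (median -1.12), overlaps the MHC region described above. The highest were chr10:96518109-102150331 (median 1.23, 20 of 50 genes higher) and chr11:167784-5505605 (median 1.16, 26 of 50 higher). Neighbouring genes can share copy number and are not independent, and copy number was not measured.

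**Figure D5:**
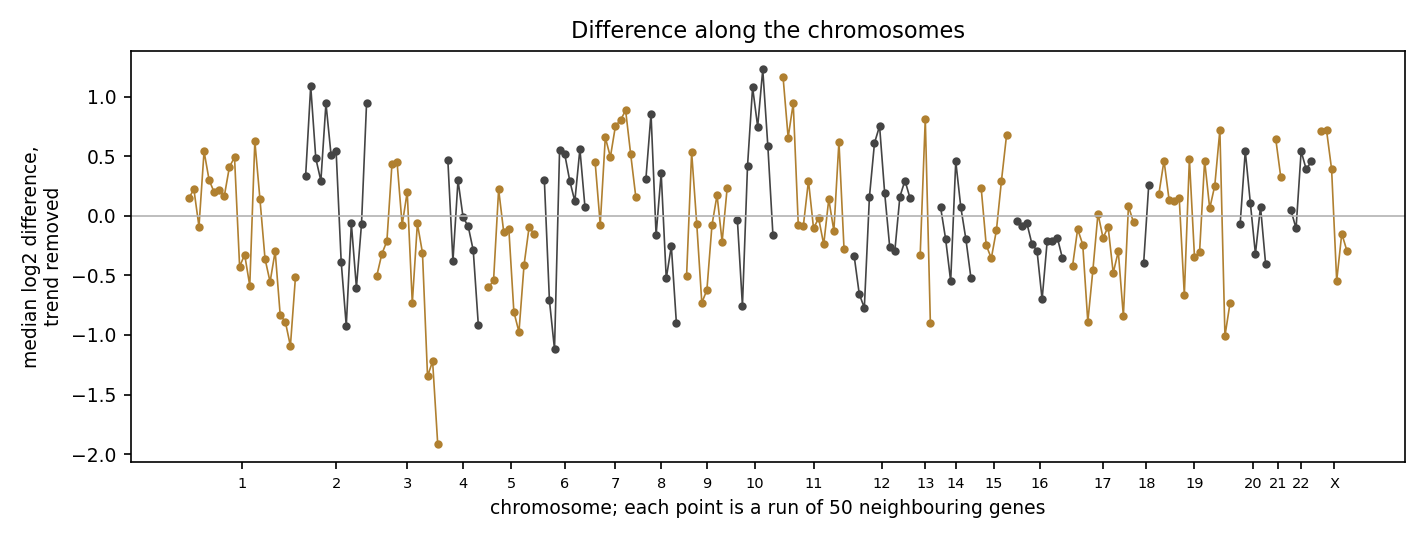
Median trend-removed log2 difference (SUM159PT minus HCC1937 CSC) in 207 runs of 50 neighbouring genes, in order along each chromosome. The 3 runs at the end of chromosome 3 reach -1.91, the lowest of all.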

How the data were processed

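Polyadenylated RNA of 15 libraries was sequenced, and the 3 libraries of unsorted SUM159PT and the 3 of HCC1937 CSC were compared. The authors deposited FPKM values, 1 column per library, for 33158 gene symbols. Their labels name Bowtie2 and GRCh38, with no version and no role, and state neither the quantification tool nor the annotation. Groups came from the labels and the paper, and every column was matched to a library. Read depth is not stated, so the precision of single values is not known and no intervals are given.

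Genes averaging 1 FPKM or more over these 6 libraries were tested on log2(FPKM + 0.1) with lmFit and eBayes of limma 3.58.1 (R 4.3.3) with default settings, and p-values were adjusted by Benjamini and Hochberg over all genes tested. A call needed an adjusted p no higher than 0.05 and a log2 difference of 1 or more in either direction. For the second fit, each library's deviation from the gene mean was fitted on transcript GC content and log10 length with smooth terms (mgcv 1.9.3), and the whole fitted value was subtracted, which also centres each library. GC content and length were medians over the transcripts of a gene in GENCODE 29, matched by symbol for 10944 genes (96.3%). Lists, 30 in all, were described by counts and medians beside all genes, with no set test. Tables were handled in Python 3.11.15 with pandas 2.3.3.

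Genes named in the text are core members of the lists, the candidate genes of the study, the 10 genes in each direction with the largest smaller difference of both fits and no overlap between groups, and in each list up to 3 further members with the largest trend-removed difference and the most abundant member. The most abundant member is the one with the highest mean over both groups together. Other genes are said to be chosen after their values were seen. The members and the lists were chosen with earlier results of these data known. Alternatives tried were the pseudocount, the minimum, scaling, the trend terms, the transcript used, the variance model, all 15 libraries in the fit, the replicate number as a block, each library left out and the call limits. Comparisons with the other groups were left out, and those libraries are given as levels.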

Additional observations from a re-analysis of the deposited data

How the results depend on the processing

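Counts of called genes moved most with the limits. As deposited, 4185 genes were called with a minimum of 5 FPKM and 4929 at an absolute log2 difference of at least 2, against 10679 with no minimum, 10362 with a minimum of 0.1 FPKM and 10203 with no fold limit. With the trend removed, 3264 were called with a minimum of 5 FPKM, 9405 with no minimum, 2423 at a log2 difference of at least 2 and 9467 with no fold limit. In both fits the counts were 2377, 6972, 1848 and 7260 under the same settings. Fewer or more genes pass a stricter or looser limit by construction. Leaving out each library in turn gave from 7368 to 7776 genes as deposited, from 5448 to 5707 with the trend removed and from 4144 to 4295 in both fits. With an arm of 2 libraries, limma pools the spread of both groups.

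Scaling changed which genes were called. Of the 4219 genes called in both fits, quantile normalization kept 3012 in their direction (71.4%), median centring 3786 (89.7%), TPM 3474 (82.3%) and upper quartile scaling 3998 (94.8%), with none called in the opposite direction under these 4. Keeping the mean shift of each library when the trend was removed, an alternative chosen after seeing the data, gave 6736 calls with a higher share of 17.6%, and kept 3456 of the 4219 (81.9%). A trend on length only and the longest transcript called 16 and 18 genes in the opposite direction from the trend-removed fit.

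The replicate block, which pairs libraries of the same number, gave 7627, 5592 and 4222 calls as deposited, with the trend removed and in both. Deviations from the group mean in libraries of the same number had r of -0.0506, -0.003 and 0.0934 across genes, which are not independent replicates.

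Spearman's rho of the difference with GC content was 0.602 with a pseudocount of 1, 0.524 with a minimum of 0.1 FPKM, 0.607 with a minimum of 5, 0.451 with no minimum and 0.534 with quantile normalization, and from 0.594 to 0.601 with each library left out. With transcript length it was -0.365 when the longest transcript was used, -0.0476 with quantile normalization, -0.0829 with a minimum of 5 FPKM and -0.0837 with no minimum. The share of variance the trend took ran from 19.1% with no minimum to 35.3% with a minimum of 5 FPKM.

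Medians of lists turned under settings other than scaling as well. With no minimum the trend-removed median was 0.39 for stem and progenitor markers, 0.30 for blood, vessel and fibroblast markers, 0.37 for extracellular matrix and -0.32 for sphingolipid and eicosanoid enzymes. With a minimum of 5 FPKM it was 0.27 for luminal genes, 0.26 for mesenchymal genes, 0.13 for histones and -0.10 for glycolysis and hypoxia, and as deposited 0.27 for interferon response, 0.24 for luminal genes and 0.14 for extracellular matrix. A trend on length only gave 0.40 for blood, vessel and fibroblast markers, 0.94 for extracellular matrix, 0.19 for luminal and 0.32 for mesenchymal genes, and the longest transcript 0.70 for extracellular matrix.

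Of 202 genes named in the text and tested, 131 kept direction and call under all alternatives as deposited and 123 with the trend removed. Where a value was called in the main fit or under the alternative, sign changes as deposited came under quantile normalization, GATA3 (0.0313), KRT7 (-0.29), VIM (-1.57), TWIST1 (1.73), SNAI2 (0.31), LOX (0.27), ACTB (-1.41), CD74 (0.32), FTL (-0.56), ENO1 (-0.27), COX8A (-0.65) and COX7C (-0.00378), or under median centring, TWIST1 (1.08), SNAI2 (0.0656), TNC (0.0562), SMAD3 (0.0307), CYR61 (0.0872) and EPHA2 (0.0761). With the trend removed they came under quantile normalization, KRT7 (-1.41), VIM (-2.20), ACTB (-2.48), FTL (-1.51), ENO1 (-0.67), LDHA (-0.37), COX8A (-1.84), COX4I1 (-0.79), ATP5B (-0.45) and H1F0 (-0.0717), with a trend on length only, AP1M2 (0.13), PKP3 (1.60), LOX (-0.77), LAMB3 (0.25), IL8 (-0.54), IFIT1 (-1.32), GCLM (-1.06) and RB1 (-1.64), and with the longest transcript, SPARC (1.02). Values called in neither changed sign for 27 genes as deposited, among them CD68 with upper quartile scaling (0.14), and for 31 with the trend removed. The cause was not tested. Beside the genes named with their values in the text, leaving out HCC1937 CSC replicate 1 took CYR61 (-0.97) and EPHA2 (-0.99) under the limit as deposited, and with the trend removed CAV1 passed it without HCC1937 CSC replicate 3 (-1.02). Read depth is not stated, so what it limits could not be examined.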

Other observations

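Each group is 3 libraries of 1 line, and line, sorting and medium differ together, so no difference can be given to any of them. FPKM without read counts allows no estimate of counting error, and the quantification tool is not stated. The trend on GC content was removed as if it were the same for each gene of a given composition, so a biological difference that follows composition was removed with it. Tested genes without an annotated match have no trend-removed value. Genes listed at 0, among them several of the MHC region, are given as listed. No protein, copy number or single-cell data were examined.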
